A study of Mus musculus with 34 samples.

Results

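The data were gene expression counts from NaJa-G and NaJa-F, a pair of mouse colorectal cancer cell lines, and the measurement was how far their transcriptional responses to the BRAF inhibitor encorafenib differed after 1 day of treatment. For each gene the encorafenib response is the log2 fold change of treated against DMSO libraries in a line, and the response difference is the NaJa-G response minus the NaJa-F response. A positive difference means a more positive response in NaJa-G. The comparison used 12 of the 34 libraries of the series, 3 for each of the 4 groups of line and treatment at day 1, and all 14107 genes of the table were tested. No filter was added to the table as deposited, and a filter by expression level, tried as an alternative, removed none of its genes. Whether the table had been cut by counts before deposit is not stated in the sources used here. Absence of a gene from it is therefore not a measurement. Each gene with a called difference was then sorted by whether it responded in both lines or in 1 of them.

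The series followed 3 such lines under drug or solvent for 1 or 5 days. All 4 groups used here came from the C57BL/6N background and carried VillinCreERT2::BrafV600E/+::Trp53R172H::APCdel, so the activated Braf allele, the mutant Trp53 allele and the loss of Apc were shared by treated and DMSO cells alike. The groups were NaJa-G with 0.5 µM encorafenib, NaJa-G with DMSO, NaJa-F with 0.5 µM encorafenib and NaJa-F with DMSO. The villin promoter restricts the Cre to gut epithelium, and the alleles had been recombined in colon organoids before these were placed into the colon of recipient mice. Each line was then isolated by peritoneal lavage from 1 recipient, so a difference between the lines and a difference between these particular isolates cannot be told apart. The labels do not say whether replicates came from separate cultures, and p-values then measure only the spread between these libraries, which may be technical.

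BRAF is a kinase that activates MEK and through it ERK, and the V600E form signals without an upstream stimulus. Encorafenib binds that form and lowers ERK signalling. ERK raises the transcription of its own inhibitors, among them the DUSP phosphatases and the Sprouty proteins, together with ETS and AP-1 transcription factors, so these transcripts are widely used as a readout of the pathway. Colorectal cells are known for restoring part of the ERK signal after BRAF inhibition, through receptor tyrosine kinases that the feedback had held back.

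Total counts in the 12 libraries ranged from 51186786 to 80121299, TMM scaling factors from 0.954 to 1.04, and the 50 most abundant genes took 13.5% to 15.6% of the counts. The spread within replicate pairs was 3.67 to 48.3 times what counting alone would give, and no library was a copy of another. NaJa-G DMSO replicate 1 and NaJa-F DMSO replicate 3 lay farthest from their groups, and without them the response difference was called for 4663 and 4535 genes in place of 4724. Levels are counts scaled to library size with TMM factors (CPM), and the values of a group are listed from replicate 1 to 3. Values after ± are standard errors (SE) on the log2 scale, and adjusted p-values are from limma with Benjamini-Hochberg adjustment over all genes, with a threshold of 0.01. Calls were repeated in 22 alternative fits that changed the tool, the scaling, the samples or a correction. Coordinates are GENCODE gene bounds on GRCm38. The epithelial markers Epcam, Cdh1, Krt8, Krt18 and Krt19 were detected in both lines. Of 8 macrophage and leukocyte markers, Ptprc, Adgre1, Lyz2, Itgam and Fcgr1 were not among the genes of the table, and the other 3 summed to 6.90 to 18.4 CPM. The endothelial markers Pecam1, Cdh5, Tek and Emcn were also not in it, and Kdr and Vwf summed to 0.861 to 1.96 CPM. Fosl1, Ccnd1, Cdk4, Il18, Tapbp, Bid, Foxm1, Mcm7, Bop1, Dkc1, Irs1, Lamb3, Pik3r3, Slurp1, B2m, Bcl2l2, Erbb2 and Lgr5 overlap another coding gene, and because the sources used here do not give the strand setting of the counting, reads of such neighbours may be included in their values. In bulk RNA, fewer cells of a type and less RNA per cell cannot be told apart.

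The 2 lines responded in largely the same direction, and NaJa-G responded more. At day 1 encorafenib changed 9026 genes in NaJa-G (64% of those tested) and 4161 in NaJa-F (29.5%), and the typical size of the response, as the median absolute log2 value of all genes tested, was 0.47 in NaJa-G and 0.21 in NaJa-F. Called in the same direction in both lines were 3922 genes, 2367 of them up and 1555 down, and 33 were called in opposite directions. Of the 3922, 3693 (94.2%) had the larger response in NaJa-G. Their NaJa-G response was a median of 2.08 times their NaJa-F response on the log2 scale, with quartiles of 1.59 and 2.70. The ratio was 2.04 for genes that rose and 2.19 for genes that fell. Across the 10261 genes averaging at least 2 log2 CPM, which come from the same libraries and are not independent of each other, the responses correlated at a Pearson r of 0.87 and a Spearman rho of 0.87.

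The response difference itself was called for 4724 genes, 33.5% of those tested. It was more positive in NaJa-G for 2705 (19.2%) and more negative for 2019 (14.3%), and 953 differed by at least 1 on the log2 scale, 660 positively and 293 negatively. The shares of 19.2% and 14.3% are those to set beside the counts of list members below. Sorted by the responses in each line, 2482 of the 4724 were called in both lines in the same direction with the larger change in NaJa-G, and 19 were called in both with the larger change in NaJa-F. A further 2108 were called in NaJa-G only, 64 in NaJa-F only and 33 in both lines with opposite signs, and for 18 neither single response passed the threshold. The classes are a sorting of calls, and a gene without a call in a line has not been shown to be unresponsive there.

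**Figure D1:**
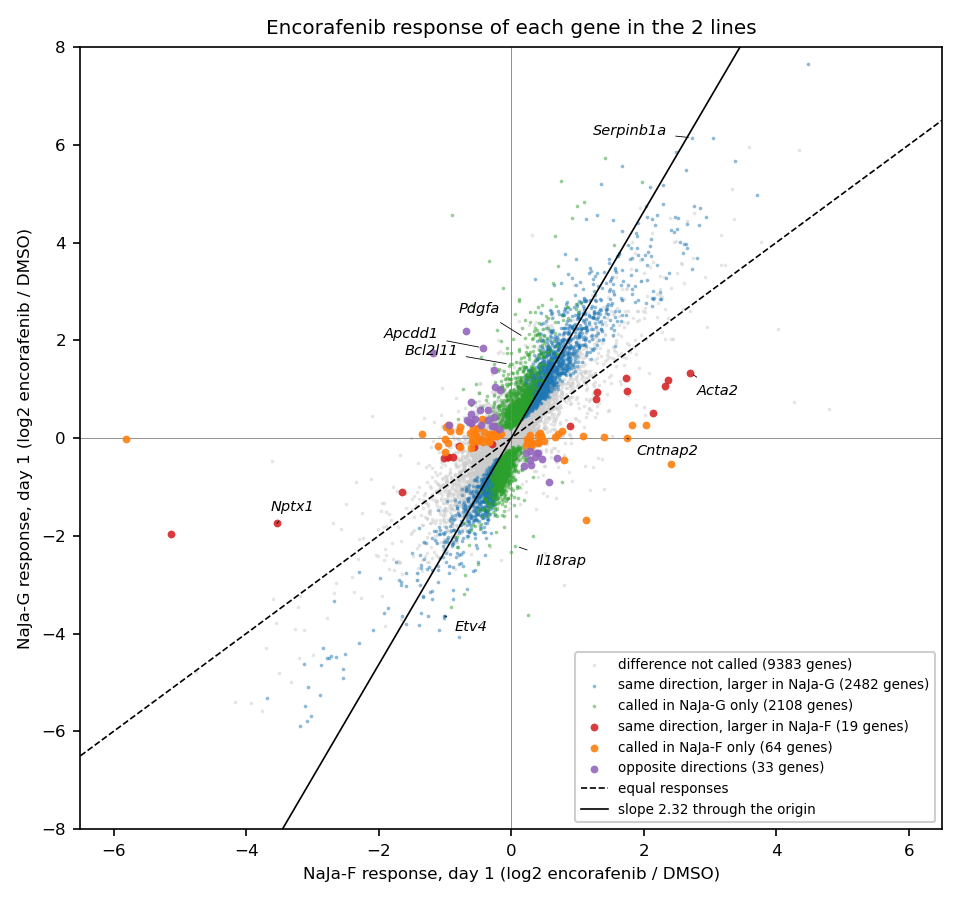
Encorafenib response at day 1 of each gene in NaJa-F (x axis, log2 fold change) and in NaJa-G (y axis, log2 fold change), coloured by class. The dashed line marks equal responses and the solid line the slope of 2.32, and most coloured points lie on the steeper side of the dashed line. The 18 genes with a called difference and neither response called are not drawn.

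A common response of larger size was separated from line-restricted responses with a scaling factor. The main axis through the NaJa-F and NaJa-G responses of the 10261 genes had a slope of 2.32, and the NaJa-F response multiplied by that slope was subtracted from the NaJa-G response. This scaled contrast was called for 619 genes (4.39%), of which 291 were higher and 328 lower in NaJa-G than the scaled NaJa-F response. In 405 of them the departure ran against the sign of the NaJa-F estimate, and in 214 it ran with that sign. The 405 mix NaJa-G responses that fell short of the scaled response with responses of opposite sign. Among them are the 33 genes called with opposite signs, and genes such as Bcl2l11, with estimates of -0.02 in NaJa-F and 1.51 in NaJa-G. Of the 4724 genes with a called response difference, 472 were also called against the scaled response and 4252 were not. The scaled contrast has a median SE of 0.22 against 0.12 for the response difference, so it can call fewer genes at the same effect size. Without NaJa-F encorafenib replicate 2 it called 389 genes, and a gene that it does not call has not been shown to follow the common scale.

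The ratio of the responses depended on which genes were taken. NaJa-D, the other line of the series, gave a grouping that used none of the 12 libraries. One NaJa-D DMSO library, replicate 3, carries another line in its cell line field, and its median absolute log2 distance was 0.07 to the other NaJa-D DMSO libraries, 0.40 to NaJa-G and 0.31 to NaJa-F. Among genes averaging at least 2 log2 CPM, the 8046 whose response in NaJa-D was under 0.5 on the log2 scale had a slope of 2.71, and 3.31% of them were called against the common scale. The slope was 2.47 for 1763 genes with a NaJa-D response of 0.5 to 1, 1.99 for 395 genes from 1 to 2, and 1.58 for 57 genes of 2 or more. In the same order 8.22%, 19.2% and 50.9% of the genes were called against the common scale. A departure of the same relative size is larger on the log2 scale when the responses are larger. The rise in these shares was therefore not separated from response size. By the slopes, genes with large responses in NaJa-D had a smaller ratio of NaJa-G to NaJa-F response. In the group of 57 the median absolute values were 1.85 in NaJa-F and 2.83 in NaJa-G. Without that library the 4 slopes were 2.70, 2.45, 1.98 and 1.58.

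Stc1, which encodes the secreted glycoprotein stanniocalcin, was such a gene. Its level was 14.4, 13.4 and 15.001 CPM in NaJa-F with DMSO and 1.02, 1.07 and 1.18 with encorafenib, against 219.8, 209 and 219 and 10.8, 10.9 and 11.5 in NaJa-G. It fell by 3.70 in NaJa-F and by 4.29 in NaJa-G on the log2 scale, and the response difference of -0.59 ± 0.21 did not pass the threshold (adjusted p = 0.021). Has2, which makes the matrix polysaccharide hyaluronan, fell by 2.30 and 2.06, with a difference of 0.24 ± 0.20 (adjusted p = 0.354). The secreted protein gene Slurp1 rose by 3.16 and 3.54, with a difference of 0.38 ± 0.28 (adjusted p = 0.277). All 3 were called against the common scale, with NaJa-G responses that fell short of the scaled NaJa-F responses and departures of 4.28, 3.27 and -3.78.

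Among genes averaging at least 2 log2 CPM that were called in the same direction in both lines, Serpinb1a, Serpinb11 and Nat8l had the largest positive differences. Serpinb1a (ENSMUSG00000044734, chr13:32842092-32851185), an inhibitor of leukocyte elastase, stood at 8.405, 7.67 and 7.58 CPM in NaJa-F with DMSO and 55.4, 52.5 and 49.3 with encorafenib, against 0.929, 1.21 and 1.33 and 79.0, 78.9 and 83.2 in NaJa-G. It rose in both lines with no overlap between treated and DMSO libraries, by 2.74 and 6.14 on the log2 scale, a difference of 3.41 ± 0.20 (adjusted p = 1.53e-13). NaJa-G started from the lower level and ended at the higher, and against the scaled response Serpinb1a was not called (-0.20, adjusted p = 0.776). Serpinb11, of the same serpin family, had responses of 0.81 and 3.76, and Nat8l, which makes N-acetylaspartate, had 0.37 and 3.26. These 2 went beyond the scaled response, by 1.87 and 2.41, and in both the treated NaJa-G libraries stayed below the NaJa-F DMSO libraries. For Nat8l these were 4.65, 3.83 and 3.92 CPM in treated NaJa-G and 71.2, 74.1 and 72.5 CPM in NaJa-F with DMSO. Serpinb genes have closely related neighbours, and how their reads were divided is uncertain.

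Downward, within the same limit of 2 log2 CPM, the largest such differences were those of Ube2ql1, Etv4 and Areg. Etv4 (ENSMUSG00000017724, chr11:101769742-101785371), an ETS transcription factor induced by ERK, was at 82.7, 84.2 and 89.9 CPM in NaJa-F with DMSO and 40.3, 42.2 and 45.5 with encorafenib, against 94.8, 95.8 and 99.9 and 7.95, 7.52 and 7.89 in NaJa-G. The DMSO levels of the lines differed by 0.18 on the log2 scale and the treated NaJa-G libraries were the lowest, which gave responses of -1.004 and -3.64 and a difference of -2.64 ± 0.11 (adjusted p = 2.62e-16). Areg, a ligand of the EGF receptor, went from 41.9, 42.95 and 48.0 to 15.4, 16.8 and 18.7 CPM in NaJa-F and from 50.1, 48.5 and 52.2 to 3.78, 3.08 and 4.03 CPM in NaJa-G. Its difference was -2.43 ± 0.17, and it was not called against the scaled response (adjusted p = 0.191), whereas Etv4 was (-1.31, adjusted p = 5.65e-06). Ube2ql1, a ubiquitin-conjugating enzyme, had responses of -1.01 and -3.68.

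Most ERK feedback transcripts had the more negative response in NaJa-G. Of 10 ERK feedback inhibitors, 6 had a more negative response in NaJa-G and 4 were not called, and their median difference was -0.62, against 0.07 over all genes. The phosphatase Dusp6, which acts on ERK itself, was at 178, 174 and 175 CPM in NaJa-F with DMSO and 94.95, 88.7 and 98.4 with encorafenib, against 193, 174 and 173 and 49.8, 45.9 and 48.6 in NaJa-G. All treated libraries lay below all DMSO libraries of the same line, and the responses of -0.90 and -1.90 differed by -1.002 ± 0.11 (adjusted p = 9.95e-09). Spry4, a Sprouty inhibitor of receptor signalling, had the largest difference of the list, -2.002 ± 0.22 (adjusted p = 1.6e-08), from responses of -1.64 and -3.64. Dusp5 (-0.76), Dusp4 (-0.70), Spred1 (-0.54) and Spry2 (-0.38) were the others called, and Spry2 was called in 15 of the 22 alternative fits, with differences from -0.42 to -0.31. Measured against the scaled response, Dusp6, Dusp5, Spry4, Spry2, Spred1 and Dusp4 had departures of 0.19, 0.17, 0.16, 0.47, -0.20 and -0.40, and none of these 6 was called. Spry1 went the other way from the rest of its family, with increases of 0.73 in NaJa-F and 0.51 in NaJa-G, and its difference of -0.22 ± 0.09 did not pass (adjusted p = 0.0629).

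Among 17 ERK-induced transcription factors tested, 9 had a more negative and 2 a more positive response in NaJa-G, with a median difference of -0.72 that was -0.41 without NaJa-F encorafenib replicate 3. Fosl1, an AP-1 subunit that depends on sustained ERK activity, was at 105, 111 and 119 CPM in NaJa-F with DMSO and 49.0, 47.4 and 47.3 with encorafenib, against 171, 150.3 and 156 and 18.5, 18.2 and 16.7 in NaJa-G. Its responses of -1.22 and -3.15 differed by -1.93 ± 0.14 (adjusted p = 5.43e-12), and treated and DMSO libraries were apart in both lines. Myc, a driver of growth and ribosome production, went from 214, 220.0 and 226 to 174, 170.5 and 173 CPM in NaJa-F and from 192, 178 and 176 to 79.0, 76.0 and 78.0 CPM in NaJa-G, a difference of -0.88 ± 0.11 (adjusted p = 1.76e-07). Etv5 (-1.34), Egr3 (-2.40), Fosb (-1.30) and Egr1 (-0.72) had called negative differences as well. The AP-1 genes Fosl2 and Jun took the opposite course in NaJa-G, where they rose by 1.24 and 1.29, with differences of 1.04 ± 0.08 and 1.07 ± 0.19.

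The growth factor ligands with a called difference divided by family. Of 13 tested, 4 were more negative in NaJa-G and 2 more positive, against 14.3% and 19.2% of all genes tested. The other 7 were not called, some of them also of the EGF family, and the median difference was -0.04. The 4 were Areg, Btc (-1.67), Ereg (-1.04) and Hbegf (-0.52), all ligands of EGF receptors that fell in both lines. The 2 were the platelet-derived growth factors Pdgfa (1.85) and Pdgfb (0.73), with increases of 2.05 and 1.48 in NaJa-G and responses of 0.20 and 0.75 in NaJa-F.

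The receptor tyrosine kinases that differed did so with the more positive response in NaJa-G. Of 19 tested they were 8, and 11 were not called, with a median difference of 0.29. Fgfr3 was at 2.44, 2.60 and 3.36 CPM in NaJa-F with DMSO and 4.18, 4.22 and 3.82 with encorafenib, against 1.88, 2.79 and 2.35 and 8.49, 10.4 and 9.26 in NaJa-G, and its responses of 0.54 and 2.02 differed by 1.48 ± 0.18 (adjusted p = 1.42e-07). Pdgfra, a receptor for the ligands above, rose in NaJa-G from 2.92, 3.01 and 2.88 to 5.10, 5.25 and 4.81 CPM, while the NaJa-F libraries were at 2.74, 2.76 and 2.39 with DMSO and 1.97, 1.99 and 2.08 CPM when treated, a difference of 1.17 ± 0.16 (adjusted p = 6.2e-07). Axl, a receptor often high in mesenchymal cells, rose by 0.40 in NaJa-G and had a response of -0.22 in NaJa-F that was not called, and the difference was 0.62 ± 0.13 (adjusted p = 0.000376). Ddr1 (0.78) and Ror1 (0.90) were more positive too. So were Egfr (0.29) and Erbb3 (0.35), whose calls were lost in 11 and 10 of the 22 alternative fits, where the differences ranged from 0.26 to 0.33 and from 0.31 to 0.39. The eighth was Fgfr1, described with the genes of opposite response. Met and Erbb2 had differences of 0.002 ± 0.12 and 0.18 ± 0.11, neither past the threshold.

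**Figure D2:**
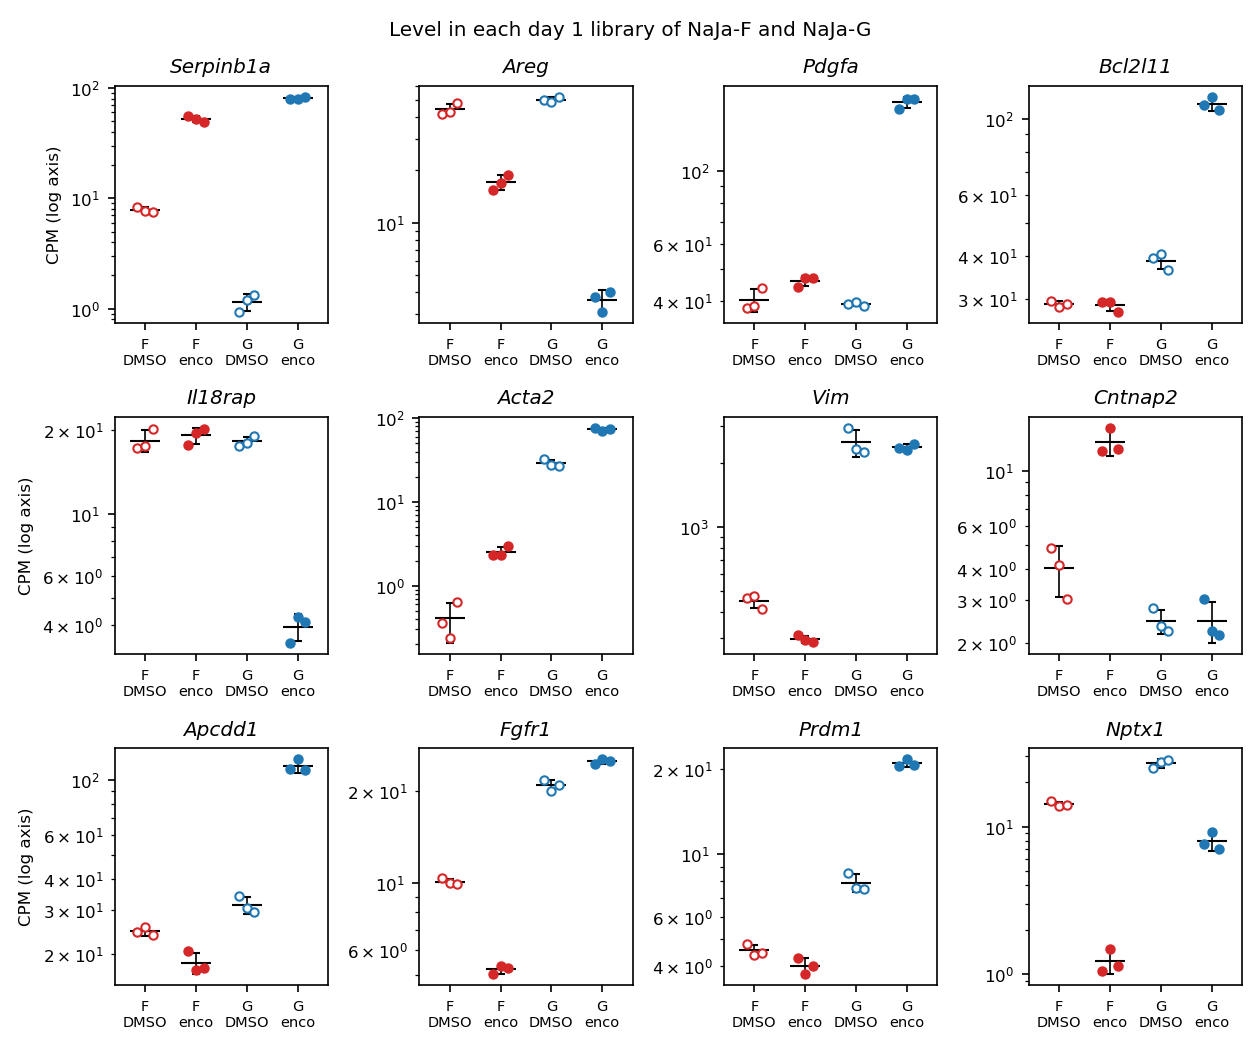
CPM on a log axis of 12 genes in the 4 groups at day 1, with 1 point for each library and the mean ± SD over 3 libraries. Serpinb1a and Areg were called in both lines, Pdgfa, Bcl2l11, Prdm1 and Il18rap in NaJa-G only, and Vim and Cntnap2 in NaJa-F only. Apcdd1 and Fgfr1 were called in opposite directions, and Acta2 and Nptx1 in both lines with the larger change in NaJa-F.

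Nearly all proliferation genes listed had a more negative response in NaJa-G, which 14.3% of all genes tested had. Of 20 DNA replication and S phase genes, 19 had a more negative response in NaJa-G, and Rrm1 (0.04 ± 0.09, adjusted p = 0.773) was the exception. The median response was -0.98 in NaJa-G and -0.25 in NaJa-F, and the median difference was -0.72. By class, 13 were called in both lines and 6 in NaJa-G only. Cdc6, which loads the replicative helicase onto origins, was at 57.3, 58.3 and 59.5 CPM in NaJa-F with DMSO and 47.5, 46.7 and 49.2 with encorafenib, against 49.8, 46.6 and 47.7 and 17.3, 19.5 and 19.5 in NaJa-G, and treated and DMSO libraries did not overlap in either line. Its responses of -0.29 and -1.36 differed by -1.07 ± 0.07 (adjusted p = 2.48e-12), and it was called against the scaled response (-0.69, adjusted p = 0.000403). Uhrf1, needed to copy DNA methylation, had a difference of -1.09 ± 0.07. The helicase subunit Mcm6 was called in NaJa-G only, with levels from 271, 244 and 236 to 168, 172 and 180.4 CPM there and from 281, 282 and 252 to 258, 267 and 274.1 CPM in NaJa-F, where they overlapped.

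Many S phase genes carry E2F sites at their start, so the promoters of the list were searched for the letters TTTCCCGC and TTTGGCGC on both strands in the 250 bases before the RefSeq start (GRCm38.p6). Of 16 list genes with a promoter sequence, 5 (31.2%) held either one, against 260 of 10225 (2.54%) over all tested genes with a sequence. The 5 were Mcm5, Mcm6, Mcm7, Cdc6 and Pola1. Mcm6, Mcm7 and Cdc6 are printed because they show the letters in both spellings and in genes of both classes, with the matched letters in capitals on either strand. A match is a description of the letters and not of a bound site.
Cdc6 (chr11:98907901-98908150, + strand): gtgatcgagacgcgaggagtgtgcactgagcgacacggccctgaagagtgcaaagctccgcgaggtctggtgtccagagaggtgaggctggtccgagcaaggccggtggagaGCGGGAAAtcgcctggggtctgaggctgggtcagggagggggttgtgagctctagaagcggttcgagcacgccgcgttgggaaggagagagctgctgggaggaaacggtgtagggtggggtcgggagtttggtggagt
Mcm7 (chr5:138171884-138172133, - strand): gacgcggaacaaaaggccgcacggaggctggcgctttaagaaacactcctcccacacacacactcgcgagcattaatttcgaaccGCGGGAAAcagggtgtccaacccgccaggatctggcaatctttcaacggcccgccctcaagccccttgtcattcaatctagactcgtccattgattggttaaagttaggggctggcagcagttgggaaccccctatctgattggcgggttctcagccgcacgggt
Mcm6 (chr1:128359706-128359955, - strand): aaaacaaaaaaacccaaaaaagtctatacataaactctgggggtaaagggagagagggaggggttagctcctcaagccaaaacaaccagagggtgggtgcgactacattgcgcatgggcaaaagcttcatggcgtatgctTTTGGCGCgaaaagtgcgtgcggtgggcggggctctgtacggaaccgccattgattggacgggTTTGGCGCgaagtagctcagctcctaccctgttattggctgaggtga
In the same order the genes had NaJa-G responses of -1.36, -1.13 and -0.53, and NaJa-F responses of -0.29, -0.26 and -0.03.

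All 20 mitosis and G2/M genes had a more negative response in NaJa-G, with a median difference of -0.77 from medians of -1.0 in NaJa-G and -0.20 in NaJa-F. In NaJa-F 9 of them were called, all lower, and 11 were called in NaJa-G only. Top2a, the topoisomerase that untangles sister DNA, went from 702, 690.1 and 708 to 576, 581 and 609.6 CPM in NaJa-F and from 766, 822 and 821 to 371, 384 and 382 CPM in NaJa-G. The difference was -0.83 ± 0.08 (adjusted p = 5.83e-10), and the treated NaJa-G libraries were below every other group. Birc5 (-1.02), Aurkb (-0.98), Ccnb1 (-0.94) and Cdk1 (-0.87) were among the 7 of the list that were also called against the scaled response, with Foxm1, a transcription factor of mitotic genes, at -0.59 (adjusted p = 0.000466).

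The regulators of the G1 phase did not move as a block. Of 14 D cyclins, their kinases and cell cycle inhibitors, 6 had a more positive and 2 a more negative response in NaJa-G. Over all genes tested these shares were 19.2% and 14.3%, and the median difference of the list was 0.37. Cyclin D1 (Ccnd1) was at 912, 768 and 757 CPM in NaJa-G with DMSO and at 1326, 1278 and 1287 when treated, while in NaJa-F the groups overlapped at 659, 674 and 581 and 678, 667 and 675 CPM. The responses of 0.68 and 0.08 differed by 0.60 ± 0.12 (adjusted p = 0.000109). Ccnd2 (0.79) and the inhibitors Cdkn2b (0.98), Cdkn2a (0.85), Cdkn1a (0.43) and the antiproliferative gene Btg2 (1.19) were more positive. Cdk4, the partner of the D cyclins, fell in NaJa-G by 0.62 and differed by -0.44 ± 0.09, and Btg1, related to Btg2, differed by -0.30 ± 0.07.

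Ribosome biogenesis genes, many of which are MYC targets, all had a more negative response in NaJa-G, 16 of 16. Their median difference of -0.94 came from -1.20 in NaJa-G and -0.36 in NaJa-F, 15 were called in both lines, and 7 went beyond the scaled response. Polr1b, a subunit of the polymerase that transcribes ribosomal RNA, was at 113, 114 and 108 CPM in NaJa-F with DMSO and 84.0, 82.8 and 88.5 with encorafenib, against 114, 109 and 108 and 32.3, 33.97 and 32.0 in NaJa-G. Its difference of -1.36 ± 0.06 (adjusted p = 2.23e-15) also stood out against the scaled response (-0.84, adjusted p = 6.11e-06). Nolc1, a nucleolar protein, differed by -1.20 ± 0.06, and Dkc1, which modifies ribosomal RNA, by -1.22 ± 0.08. Bop1, the gene of the list called in NaJa-G only, had a difference of -0.34 ± 0.10, and its call was lost in 8 of the 22 alternative fits (-0.41 to -0.27).

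Of 10 BCL2 family members that promote cell death, 4 had a more positive response in NaJa-G, where 19.2% of all genes tested did, and 6 were not called, with a median difference of 0.39. In NaJa-G 7 of the 10 rose and 1 fell, and in NaJa-F 4 rose. Bcl2l11 (ENSMUSG00000027381, chr2:128126038-128162547), which encodes BIM, a protein that ERK marks for destruction, was at 29.7, 28.5 and 29.0 CPM in NaJa-F with DMSO and 29.4, 29.4 and 27.5 with encorafenib, against 39.5, 40.4 and 36.4 and 109.7, 116 and 106 in NaJa-G. The NaJa-F groups overlapped, and the treated NaJa-G libraries lay above all others. The responses of -0.02 and 1.51 gave a difference of 1.52 ± 0.11 (adjusted p = 5.17e-12), and the NaJa-F interval lay within 0.5 of 0 on the log2 scale. Bmf, a related activator of cell death, was at 2.88, 2.35 and 2.53 CPM in NaJa-F with DMSO and 5.65, 4.49 and 3.73 with encorafenib, against 4.33, 4.14 and 3.79 and 26.1, 29.6 and 26.5 in NaJa-G. Treated libraries lay above DMSO libraries in both lines, and the responses differed by 1.92 ± 0.25 (adjusted p = 3.95e-07). Bid (0.69) and Pmaip1 (0.45) rose in both lines. Of 4 survival members, Mcl1 differed by 0.29 ± 0.05, and Bcl2, Bcl2l1 and Bcl2l2 had -0.01, 0.14 and 0.26, none of them called.

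The insulin receptor, PI3K and FOXO list had 10 of 13 genes with a more positive response in NaJa-G and 3 that were not called, at a median difference of 0.75. Foxo3, a transcription factor restrained by AKT, was at 55.5, 55.9 and 51.8 CPM in NaJa-F with DMSO and 55.6, 54.98 and 56.6 with encorafenib, against 37.7, 30.3 and 30.1 and 63.6, 61.3 and 62.0 in NaJa-G. NaJa-F groups overlapped, and the NaJa-G response of 0.93 against 0.04 gave a difference of 0.90 ± 0.11 (adjusted p = 1.98e-07). The insulin receptor substrates Irs1 (0.72) and Irs2 (0.93), the kinase subunit gene Pik3cb (0.45) and Txnip (0.76), an inhibitor of glucose uptake, were also called in NaJa-G only. Pik3ip1, a negative regulator of PI3K, rose in both, by 0.61 and 2.19, as did the regulatory subunits Pik3r1 (0.95) and Pik3r3 (1.14), Sesn3 (0.75) and Foxo1 (0.36), the last with a call that was lost in 5 of the 22 alternative fits, those without NaJa-G DMSO replicate 2 or 3, NaJa-F encorafenib replicate 2 or NaJa-F DMSO replicate 1 or 2 (0.32 to 0.42 over all 22).

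The 2108 genes called in NaJa-G only mostly had small NaJa-F estimates in the same direction. In 1760 of them the NaJa-F estimate had the sign of the NaJa-G response, at a median absolute size of 0.13. For 1821 the 95% interval of the NaJa-F response lay within 0.5 of 0, for 169 it was wider, and 118 averaged under 1 CPM in NaJa-F. Against the scaled response 182 were called, and 175 of these also had the narrow interval, 79 rising and 96 falling in NaJa-G. These 175 combine a called NaJa-G response, a NaJa-F interval within 0.5 of 0 and a departure from the common scale. No minimum size was set for the NaJa-G response, and in some it was itself under 0.5 with a NaJa-F estimate of opposite sign. Kctd3 had -0.22 in NaJa-G and 0.13 in NaJa-F, and Cblb had 0.28 and -0.12.

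Pdgfa (ENSMUSG00000025856, chr5:138976014-138997370) was at 38.1, 38.5 and 43.9 CPM in NaJa-F with DMSO and 44.2, 47.1 and 47.2 with encorafenib, against 39.3, 39.8 and 38.6 and 156, 167 and 167 in NaJa-G. Its responses of 0.20 and 2.05 differed by 1.85 ± 0.10 (adjusted p = 6.09e-14), and the treated NaJa-G libraries lay over 3 times above all others. The NaJa-F groups did not overlap either, although that rise was not called, and NaJa-D had a called rise of 0.81. Slc16a10, an aromatic amino acid transporter, and Prdm1, the transcriptional repressor BLIMP1, rose in NaJa-G by 1.73 and 1.41, with NaJa-F estimates of -0.0043 and -0.18. Il18rap, a chain of the interleukin 18 receptor, was at 17.3, 17.5 and 20.3 CPM in NaJa-F with DMSO and 17.8, 19.5 and 20.2 with encorafenib, against 17.6, 18.1 and 19.05 and 3.45, 4.30 and 4.11 in NaJa-G. Only treated NaJa-G lay apart, and the difference was -2.27 ± 0.12 (adjusted p = 3.62e-14). Itga2, a collagen-binding integrin chain, went from 12.7, 14.9 and 15.6 to 4.01, 4.19 and 3.78 CPM in NaJa-G and was several times higher in NaJa-F, at 76.0, 80.02 and 74.4 and 71.8, 68.1 and 73.3 CPM, a difference of -1.72 ± 0.17. Prss22, a serine protease, fell in NaJa-G by 1.57 and had -0.14 in NaJa-F. Hk2, which begins glucose breakdown, fell in NaJa-G by 1.36 with -0.13 in NaJa-F, a difference of -1.23 ± 0.08 (adjusted p = 9.01e-13). Aebp1, a matrix protein under 1 CPM in NaJa-F, rose by 0.66 in NaJa-G, and the call of its difference (0.86 ± 0.26) was lost in 11 of the 22 alternative fits (0.77 to 0.95).

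Responses called in NaJa-F only were few, 64 genes, of which 24 rose and 40 fell. The NaJa-G interval lay within 0.5 of 0 for 51, was wider for 6, and 7 averaged under 1 CPM in NaJa-G. Of the 64, 60 were called against the scaled response, and 47 met both conditions, 17 rising and 30 falling. Cntnap2, an adhesion protein of the neurexin family, was at 4.89, 4.14 and 3.04 CPM in NaJa-F with DMSO and 12.1, 14.99 and 12.3 with encorafenib, against 2.77, 2.34 and 2.246 and 3.01, 2.23 and 2.16 in NaJa-G. It rose by 1.74 in NaJa-F while the NaJa-G groups overlapped, a difference of -1.75 ± 0.23 (adjusted p = 3.16e-07). Megf6, which has EGF-like repeats, was at 10.8, 11.5 and 9.42 CPM in NaJa-F with DMSO and 4.50, 3.97 and 3.99 with encorafenib, against 3.25, 2.87 and 2.53 and 2.74, 3.16 and 3.26 in NaJa-G, with a difference of 1.41 ± 0.20 (adjusted p = 1.93e-06). Pgf, a ligand of the VEGF receptor family, fell by 0.99 in NaJa-F and differed by 1.21 ± 0.14, and Gata2, a transcription factor, fell by 0.95 and differed by 0.85 ± 0.15. Krt6a, a keratin induced in stressed epithelium, and Map2, a microtubule protein, rose in NaJa-F by 0.79 and 0.71, with NaJa-G estimates of -0.44 and 0.08.

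This class held 3 of 12 mesenchymal cytoskeleton and adhesion genes, Vim and Lgals1, which fell in NaJa-F, and Tpm2, which rose there. Over the whole list 7 genes rose and 2 fell in NaJa-F, at a median response of 0.78, and 9 rose and 0 fell in NaJa-G. Vim, the intermediate filament of mesenchymal cells, was at 466, 472 and 409 CPM in NaJa-F with DMSO and 310.0, 292 and 286 with encorafenib, against 2930.0, 2323 and 2255 and 2359.9, 2305 and 2462 in NaJa-G. NaJa-F fell with no overlap and NaJa-G, which held over 4 times the level of NaJa-F, overlapped, so the responses of -0.60 and -0.06 differed by 0.54 ± 0.15 (adjusted p = 0.00436). Vim was not called in 6 fits with 1 library left out, namely NaJa-G DMSO replicate 2 or 3, NaJa-G encorafenib replicate 3, NaJa-F DMSO replicate 1 or 2 or NaJa-F encorafenib replicate 3, and its difference over the 22 alternative fits was 0.46 to 0.65. Lgals1, the lectin galectin-1, had responses of -0.57 and 0.0031 and lost its call in 5 of the same 6 fits, the exception being the one without NaJa-G encorafenib replicate 3 (0.51 to 0.70 over the 22). Zeb2 (-0.28 and 0.08), a repressor of epithelial genes, the homeobox factor Prrx1 (-0.79 and 0.14) and the TGF-beta inhibitor Smad7 (-0.33 and 0.08) all fell in NaJa-F and were not called in NaJa-G.

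The 33 genes called with opposite signs were up in NaJa-G for 22 and down for 11, and 13 differed by at least 1. Apcdd1, a membrane inhibitor of WNT signalling, was at 24.5, 25.7 and 23.8 CPM in NaJa-F with DMSO and 20.5, 17.2 and 17.5 with encorafenib, against 34.3, 30.7 and 29.5 and 110.2, 121 and 109 in NaJa-G. It fell by 0.43 in NaJa-F and rose by 1.85 in NaJa-G with no overlap in either line, a difference of 2.27 ± 0.12 (adjusted p = 8.52e-15). Fgfr1, a fibroblast growth factor receptor, was at 10.3, 9.94 and 9.92 CPM in NaJa-F with DMSO and 5.02, 5.36 and 5.27 with encorafenib, against 21.7, 19.997 and 20.8 and 24.5, 25.4 and 24.98 in NaJa-G, so that its levels differed more between the lines after treatment than before, with a difference of 1.21 ± 0.09 (adjusted p = 2.5e-11). Epas1, which encodes HIF-2α, had responses of -0.26 and 1.40, and Podxl, a surface sialomucin, -0.24 and 1.04. In the other direction, the glycosyltransferase gene Gcnt4 rose by 0.57 in NaJa-F and fell by 0.89 in NaJa-G, the adenylyl cyclase Adcy1 had 0.46 and -0.43, and the nucleotide receptor P2ry2 had 0.30 and -0.55.

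In 19 genes the same-direction response was the larger in NaJa-F, 9 rising and 10 falling, and 11, 11 and 12 genes were left in this class without NaJa-G encorafenib replicate 1, NaJa-F DMSO replicate 2 and NaJa-G DMSO replicate 1. Acta2, the smooth muscle actin of contractile cells, was at 0.360, 0.237 and 0.644 CPM in NaJa-F with DMSO and 2.34, 2.33 and 2.97 with encorafenib, against 32.5, 27.5 and 27.2 and 76.0, 69.6 and 75.05 in NaJa-G. Both lines rose without overlap, from DMSO levels that were 6.21 higher in NaJa-G on the log2 scale, and the difference was -1.36 ± 0.29 (adjusted p = 0.000303). Nptx1, a secreted pentraxin, was at 14.8, 13.7 and 13.9 CPM in NaJa-F with DMSO and 1.05, 1.47 and 1.14 with encorafenib, against 24.9, 27.5 and 28.4 and 7.64, 9.12 and 7.04 in NaJa-G, a difference of 1.79 ± 0.24 (adjusted p = 4.55e-07). Dlx1, a homeobox factor, Adam19, a surface protease, and Pcdh19, a protocadherin, had differences of 0.60, 0.61 and -0.48. Col6a1 (-0.49 ± 0.15) lost its call in 14 of the 22 alternative fits (-0.62 to -0.38). Acta2 was below 1 CPM in NaJa-F with DMSO, which leaves few counts behind the NaJa-F response, and its SE was 0.28 there against 0.07 in NaJa-G.

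**Figure D3:**
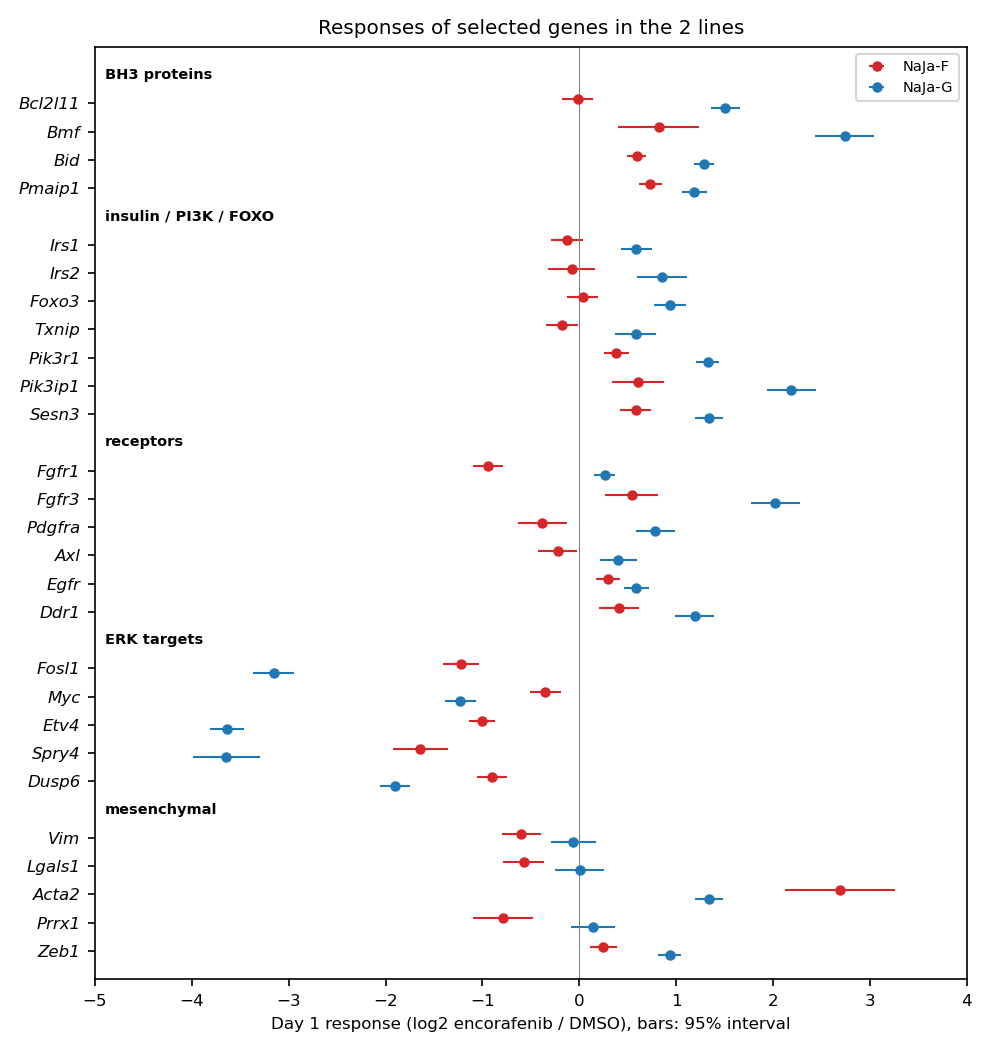
Encorafenib response at day 1 (log2) of 27 genes in NaJa-F (red) and NaJa-G (blue), with 95% intervals from the limma fit, grouped by gene set. Intervals to the right of 0 mark a rise with encorafenib in that line. The genes were picked for display after their values were seen.

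Among epithelial junction and keratin genes, 8 of 16 had a more positive response in NaJa-G, 2 a more negative one and 6 were not called, with a median difference of 0.49 from medians of 0.76 and 0.35. Jup (0.97), Cldn4 (0.90), Dsp (0.78), Krt7 (0.61), Krt19 (0.60), Ocln (0.60) and Tjp1 (0.58), which build desmosomes, tight junctions and the keratin network, rose in both lines. Cdh1, encoding E-cadherin, was the eighth at 0.33 ± 0.10, a call lost in 13 of the 22 alternative fits (0.29 to 0.38). Krt20, a keratin of differentiated gut epithelium, fell by 1.10 in NaJa-F and by 2.61 in NaJa-G, and Krt18 differed by -0.54 ± 0.13 with neither response called.

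The epithelial transcription factors differed among themselves. Of 13 tested, 4 were more positive, 2 more negative and 7 not called, against 19.2% and 14.3% of all genes, with a median difference of 0.17. Ehf, an ETS factor of epithelial cells, was at 50.1, 48.6 and 47.2 CPM in NaJa-F with DMSO and 65.0, 66.5 and 63.5 with encorafenib, against 14.996, 15.3 and 13.3 and 62.8, 63.1 and 66.6 in NaJa-G, and treated NaJa-G libraries reached the range of treated NaJa-F libraries from DMSO levels 1.74 lower on the log2 scale. Its difference was 1.72 ± 0.09 (adjusted p = 2.97e-14), and it went beyond the scaled response (1.17, adjusted p = 8.44e-06). The related Elf3 differed by 1.04 ± 0.12, and Klf4 (0.54) and Klf5 (0.55) were called in NaJa-G only. Cdx2, which specifies intestinal identity, went from 52.7, 52.6 and 49.7 to 43.9, 44.96 and 41.8 CPM in NaJa-F, a response that was not called at the threshold, and from 9.88, 7.86 and 8.30 to 3.61, 4.07 and 4.13 CPM in NaJa-G, a difference of -0.90 ± 0.17 (adjusted p = 6.16e-05). Hnf4a also was more negative (-0.62 ± 0.19) but lost its call in 17 of the 22 alternative fits (-0.76 to -0.49).

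Transcription factors of the epithelial to mesenchymal transition (EMT) that differed also had the more positive response in NaJa-G, 4 of 7 tested, with 3 not called and a median difference of 0.37. Zeb1 was at 18.2, 17.04 and 16.2 CPM in NaJa-F with DMSO and 22.03, 18.8 and 20.3 with encorafenib, against 32.0, 30.2 and 30.8 and 59.5, 59.1 and 58.8 in NaJa-G, a difference of 0.68 ± 0.09 (adjusted p = 5.16e-07). Snai2, another repressor of E-cadherin, rose by 1.24 in NaJa-G and had 0.23 in NaJa-F, a difference of 1.01 ± 0.11 (adjusted p = 1.47e-08). The other 2 were Zeb2 (0.37) and Prrx1 (0.93), whose differences came from the falls in NaJa-F given above. Of 12 mesenchymal cytoskeleton and adhesion genes, 5 were more positive (Cald1, Cnn2, Tpm1, Vim and Lgals1), 2 more negative (Acta2 and Tpm2) and 6 departed from the scaled response. Cald1, an actin-binding protein, had the largest difference of that list among the positive ones, 1.52 ± 0.09 (adjusted p = 1.91e-13).

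Of 20 collagen and matrix genes, 7 were more positive in NaJa-G and 3 more negative, against 19.2% and 14.3% of all genes tested. Against the scaled response 7 were called, and the median difference was 0.36. Col11a1, a fibrillar collagen chain, rose by 1.54 and 4.47, a difference of 2.93 ± 0.32 (adjusted p = 1.62e-08), followed by Col5a1 (1.502), Lamb3 (0.95) and Sparc (0.67). Col5a2 (-1.63), Col6a2 (-1.18) and Col6a1 rose further in NaJa-F, and the call of Col6a2 was lost with limma-trend and without NaJa-F DMSO replicate 2. Summed fibroblast and mesothelial markers also differed between the 4 groups. Of those tested, 1 of 5 fibroblast and 2 of 3 mesothelial markers had a called response difference, more positive in NaJa-G. The fibroblast markers Col1a1, Col1a2, Col3a1, Pdgfrb and Pdgfra, 5 of 8 on that list, summed to 4.71 to 6.32 CPM in NaJa-F, 57.5 to 77.8 CPM in NaJa-G with DMSO and 94.4 to 110.6 CPM in treated NaJa-G, and Dpt, Lum and Thy1 were not in the table. The mesothelial markers Msln, Upk3b and Lrrn4, 3 of 5, summed to 743 to 985 CPM and 1104 to 1176 CPM in NaJa-F with DMSO and encorafenib, and to 558 to 724 and 1328 to 1523 CPM in NaJa-G, with Wt1 and Krt5 not in the table. Their part in these results was not tested.

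Among TGF-beta genes, 6 of 14 were more positive and 2 more negative, against 19.2% and 14.3% of all genes tested. Their median difference was 0.27. The ligand Tgfb2 rose by 2.55 and 4.01, a difference of 1.46 ± 0.14 (adjusted p = 1.93e-09), and yet fell short of the scaled response (-1.90, adjusted p = 1.14e-05). The receptor Tgfbr2 differed by 1.30 ± 0.11, Inhba, an activin chain, by 1.004 ± 0.11, and Id3 by 0.66 ± 0.12. Ltbp1, which binds latent TGF-beta, fell in NaJa-G, with a difference of -0.42 ± 0.09. Of 12 YAP targets and fetal intestinal markers, 7 were more positive in NaJa-G, among them Amotl2 (1.02) and Ankrd1 (0.95), and 1, the interleukin 1 antagonist Il1rn, was more negative (-0.30). Their median difference was 0.45.

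The WNT feedback genes that differed also had the more positive response in NaJa-G, 5 of 13 tested, with 8 not called and a median difference of 0.42. Axin2, the general feedback gene of the pathway, was at 162, 159 and 163 CPM in NaJa-F with DMSO and 203, 191 and 185 with encorafenib, against 217, 223 and 219 and 428, 452 and 403 in NaJa-G, a difference of 0.70 ± 0.09 (adjusted p = 1.8e-07). Rnf43, which removes WNT receptors from the membrane, was at 103, 106 and 98.7 CPM in NaJa-F with DMSO and 144, 135 and 125 with encorafenib, against 105, 99.8 and 90.1 and 302, 307 and 293 in NaJa-G. The DMSO levels of the lines differed by -0.06 on the log2 scale and the treated NaJa-G libraries were over 2 times the treated NaJa-F libraries, a difference of 1.22 ± 0.10 (adjusted p = 5.77e-11) that also exceeded the scaled response (0.70, adjusted p = 0.00875). Notum (1.31) and Nkd1 (1.10), both pathway inhibitors, rose in both lines, and the ephrin receptor Ephb3 (1.19) rose in NaJa-G only. Lgr5 (0.34 ± 0.14) and Sox9 (-0.10 ± 0.16) were not called.

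Several antigen presentation and interferon genes rose in both lines. Of 14 MHC class I and antigen loading genes tested, 4 had a more positive response in NaJa-G and 10 were not called, with a median difference of 0.40. The 4 are a share not far above the 19.2% of all genes tested. Tapbp, the tapasin that loads peptides on class I molecules, was at 88.7, 92.7 and 83.9 CPM in NaJa-F with DMSO and 204, 207 and 189 with encorafenib, against 63.8, 55.05 and 52.0 and 295, 282 and 305 in NaJa-G, a difference of 1.19 ± 0.12 (adjusted p = 4.87e-09) that was not called against the scaled response (adjusted p = 0.385). H2-T23 (1.29), H2-T22 (1.01) and H2-T24 (1.04) were the others, and reads of such near-identical genes may have been split between copies. The classical H2-K1 and H2-D1 had differences of 0.29 ± 0.11 and 0.13 ± 0.12, and B2m had 0.14 ± 0.10, none of them called. Of 16 interferon genes, 5 were more positive, against the same 19.2% of all genes tested, and 11 were not called. Their median difference was 0.47. Among the 5 were Ifi27 (0.90), Parp14 (1.04), Isg20 (0.68) and Ifi35 (0.58).

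Among 11 immune checkpoint ligands and regulators, 3 were more positive and 2 more negative, shares near the 19.2% and 14.3% of all genes tested, with a median difference of 0.39. Cd274, which encodes PD-L1, was at 3.29, 3.10 and 3.96 CPM in NaJa-F with DMSO and 3.10, 3.10 and 2.33 with encorafenib, against 6.06, 6.09 and 7.45 and 2.80, 3.19 and 3.56 in NaJa-G. Treated NaJa-G libraries came down to the NaJa-F range without overlap with their own DMSO libraries, and the response of -1.03 differed from that of NaJa-F by -0.74 ± 0.18 (adjusted p = 0.00098), a call that was lost when only the 4 groups were fitted. Havcr2, the receptor TIM-3, fell by 0.99 in NaJa-F and by 2.55 in NaJa-G. Cd55, which protects cells from complement, rose by 0.75 and 3.17, and Lgals9, encoding galectin-9, by 1.17 and 2.52. Ceacam1 (0.39) was the third positive gene.

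Secreted inflammatory factors had a median difference of 0.00064, with 5 of 13 more positive and 2 more negative. Over all genes tested these shares were 19.2% and 14.3%. Il18, an inflammasome cytokine, was at 0.0686, 0.0148 and 0.0980 CPM in NaJa-F with DMSO and 1.18, 1.37 and 1.23 with encorafenib, against 0.0131, 0.0670 and 0.0665 and 8.83, 9.60 and 9.73 in NaJa-G. Both DMSO groups were near 0, so the fold changes rest on very low denominators, and the treated NaJa-G libraries were the highest. The difference was 3.17 ± 0.62 (adjusted p = 0.000117). Il33, an alarmin, differed by 1.18 ± 0.17 and the neutrophil attractant Cxcl5 by 0.77 ± 0.13. Csf2, encoding GM-CSF, fell by 1.01 in NaJa-F and by 3.63 in NaJa-G, and Spp1, encoding osteopontin, by 1.69 and 2.90. The leukocyte markers detected, Csf1r, Cd68 and Mrc1, summed to 9.30 to 10.9 CPM in NaJa-F, 16.03 to 18.4 CPM in NaJa-G with DMSO and 6.90 to 7.36 CPM in treated NaJa-G, and their part in these values was not tested.

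**Figure D4:**
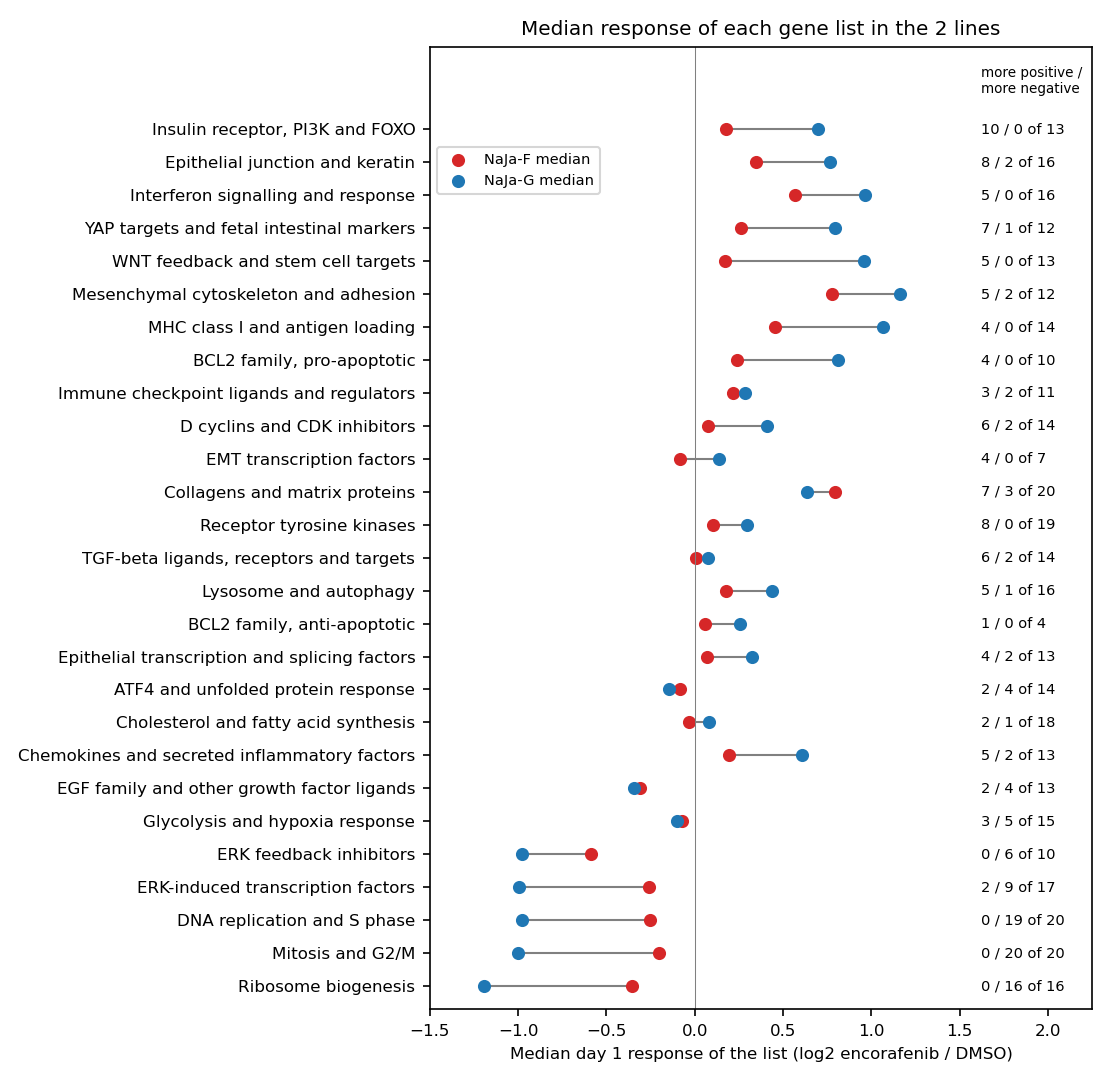
Median encorafenib response at day 1 (log2) of 27 gene lists in NaJa-F (red) and NaJa-G (blue), ordered by the median response difference, with the numbers of members called more positive or more negative in NaJa-G. Ribosome biogenesis, mitosis and DNA replication lie at the negative end and the insulin receptor, PI3K and FOXO list at the positive end.

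The difference was set beside libraries outside its contrast. They were in the same model, so they entered the estimate of spread behind the day 1 calls. At day 5, where NaJa-G with DMSO and NaJa-F with encorafenib had 2 libraries each, the response difference was called for 3412 genes (24.2%). Of the 2482 genes with a larger same-direction response in NaJa-G at day 1, 92.3% had the same sign of difference at day 5, with 1424 called alike and 30 called against. For genes called in NaJa-G only the share was 84.5% (640 and 47), and over all 14107 genes it was 72.0%. Of the 64 genes called in NaJa-F only, 44 (68.8%) kept the sign, with 28 called alike and 10 against. Of the 33 with opposite signs, 25 (75.8%) kept it, with 17 called alike and 2 against. Of the 19 with the larger response in NaJa-F, 11 (57.9%) kept it, with 8 called alike and 6 against. The shares of 68.8% and 57.9% lie below the 72.0% of all genes, and 75.8% is near it.

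NaJa-D gave the other outside measurement, with a called day 1 response for 6335 genes (44.9%). This response had the sign of the NaJa-G response in 96.4% of the 2482 genes (2008 called alike, 15 against) and in 81.9% of the 2108 genes called in NaJa-G only (1038 and 67). The share of agreeing signs over all genes tested was not counted, so these 2 percentages have no background beside them. The numbers of calls are to be set beside the 44.9% of all genes called in NaJa-D in either direction. Among the 175 genes of the NaJa-G only class that met both further conditions, 87 were called in NaJa-D in the NaJa-G direction. The NaJa-D call went against it for 20, and 68 had no call. Of the 64 genes called in NaJa-F only, NaJa-D shared the call for 37 and had no call for the other 27. For the 33 opposite genes it was called with the NaJa-F sign in 20 and with the NaJa-G sign in 1. Vim (-1.498), Lgals1 (-1.04), Cntnap2 (2.82) and Megf6 (-1.94) had NaJa-D responses in the direction of NaJa-F, and so had Apcdd1 (-0.97) and Podxl (-0.93) of the opposite class. Without the library of differing label, NaJa-D was called with the NaJa-G sign in 1872 of the 2482 genes and 887 of the genes called in NaJa-G only, with the NaJa-F sign in 35 of the 64, and with the NaJa-F and NaJa-G signs in 19 and 1 of the 33.

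**Figure D5:**
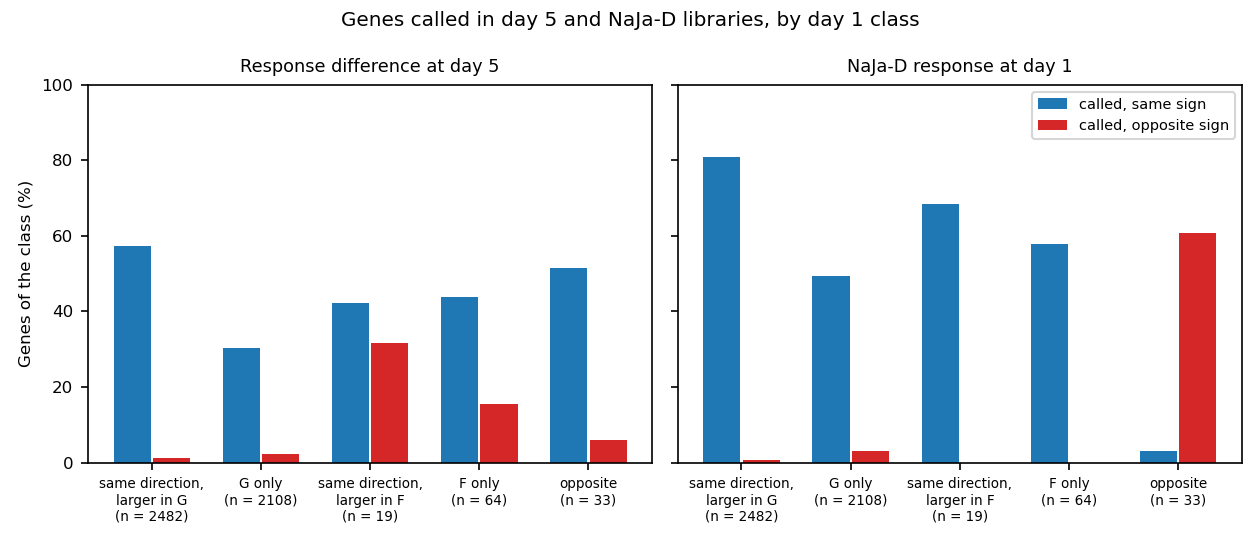
Percentage of genes of each class called with the same sign or with the opposite sign in 2 measurements that used other libraries, the response difference at day 5 and the NaJa-D response at day 1. For NaJa-D the reference sign is that of the NaJa-G response, or of the NaJa-F response for genes called in NaJa-F only. In the class with opposite signs, 20 of 33 genes were called in NaJa-D against the NaJa-G sign.

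Some differences turned over between the days. Of the 2220 genes called at both days, 95 had the opposite sign at day 5. Of 237 named genes called at day 1, 146 were called again, 133 with the same sign and 13 with the opposite one. Death genes were among the 13. The difference of Bmf went from 1.92 to -1.33 (adjusted p = 1.63e-05) and that of Bcl2l11 from 1.52 to -0.47 (adjusted p = 0.00195), where the NaJa-G responses were -1.08 and -0.31 at day 5. Prdm1 went from 1.59 to -1.6199, Cdkn1a from 0.43 to -1.10 and Pdgfa from 1.85 to -0.51. Acta2 took the other course, from -1.36 to 3.79 (adjusted p = 3.24e-09), and Tpm2 went from -1.56 to 1.88. When each of the 10 day 5 libraries was left out in turn, the day 5 calls of Bmf, Prdm1, Cdkn1a and Acta2 held in all 10 fits. Those of Bcl2l11 and Pdgfa held in 8, failing without NaJa-F encorafenib replicate 2 and without NaJa-G DMSO replicate 1 for Bcl2l11 or replicate 3 for Pdgfa. The day 5 difference then ranged from -0.61 to -0.33 for Bcl2l11 and from -0.65 to -0.38 for Pdgfa. Tpm2 held in 7, from 1.12 to 2.65, failing without NaJa-F DMSO replicate 3, NaJa-F encorafenib replicate 1 or NaJa-G DMSO replicate 1.

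The treated lines differed from each other more than the untreated ones. Between NaJa-G and NaJa-F 6143 genes (43.5%) were called with DMSO and 8296 (58.8%) with encorafenib at day 1, and the median absolute log2 difference between the lines went from 0.26 to 0.39.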

How the data were processed

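RNA from mouse colorectal cancer lines was sequenced, and the table deposited by the authors holds raw read counts per gene for 34 libraries. The submitters' processing notes name Trimmomatic 0.39, STAR 2.5.2b and the mouse build GRCm38 (mm10). The counting tool, its annotation and its use of strand are not given in the sources used here. Counts were scaled with TMM and fitted with limma 3.58.1 (voom) in R 4.3.3, with edgeR 4.0.16, in 1 model with the 12 groups of line, treatment and day. The response difference was a contrast of the 4 day 1 groups of NaJa-G and NaJa-F, and calls required a Benjamini-Hochberg adjusted p under 0.01 over the 14107 genes of the table with no further filter. Total counts of 51186786 to 80121299 per library limit precision at low levels.

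Genes were named by rule: the 3 with the largest difference for each class and direction, averaging at least 2 log2 CPM, without overlap in the responding line and at 1 CPM or more in the other, up to 3 under 1 CPM, the 3 departing most from the scaled response in each direction, and members of gene lists. The genes and lists were chosen with earlier results of these data known, and genes of single classes named beyond that rule were chosen after their values were seen. Gene symbols were given for 14064 IDs, and 74 of 417 named genes overlap another coding gene. Promoters came from RefSeq (GRCm38.p6). One NaJa-D library has a line field that differs from its title and was kept under its title. Alternatives were edgeR's quasi-likelihood test, DESeq2 1.42.0, limma-trend, other scalings, a filter, only the 4 groups, a replicate block, each library left out, and other thresholds. A GC correction, leaving out that NaJa-D library and leaving out day 5 libraries were added after seeing the data. The tests were tried on simulated data. A few list members are not reported here.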

Additional observations from a re-analysis of the deposited data

Results flagged for a closer look

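These classes are listed because the response to encorafenib differed between the lines in a way that a common response of larger size in NaJa-G would not give, each gene by the test of the difference itself. The first are the 33 genes called with opposite signs, among them Apcdd1 and Fgfr1. The second are the 64 genes called in NaJa-F only, among them Cntnap2, Megf6 and Vim. The third are the 19 genes that moved the same way in both lines with the larger response in NaJa-F, among them Acta2 and Nptx1. In the same order 75.8%, 68.8% and 57.9% kept the sign of the difference at day 5, against 72.0% of all genes tested. Groups of 3 libraries are too small for a test of outlying samples.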

How the results depend on the processing

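The response difference was called for 4724 genes, and for 4203 to 4663 with each of the 12 libraries left out in turn. The same fits gave 8426 to 9076 calls in NaJa-G, 3272 to 4398 in NaJa-F, 1992 to 2582 genes of the same direction and larger in NaJa-G, 11 to 14 larger in NaJa-F, 1822 to 2388 in NaJa-G only, 48 to 70 in NaJa-F only, 24 to 31 of opposite sign, and 389 to 607 against the scaled response, the lowest of the last without NaJa-F encorafenib replicate 2. The 11 came without NaJa-G encorafenib replicate 1 or NaJa-F DMSO replicate 2, and limma-trend left 10 genes larger in NaJa-F. At an adjusted p below 0.05 there were 116 genes in NaJa-F only, 73 of opposite sign and 1128 against the scaled response. With an absolute log2 value of at least 1 the counts were 953 for the difference, 2883 for NaJa-G, 691 for NaJa-F, 647 larger in NaJa-G, 6 larger in NaJa-F, 272 in NaJa-G only, 13 in NaJa-F only, 13 of opposite sign and 323 against the scaled response. The slope ranged from 2.253 to 2.42. The share of positive differences, 57.3%, went from 52.5% with library size alone to 59.6% without the NaJa-D library of unclear label. No called gene among 242 named ones changed sign, and 0 to 16 lost their call under any one alternative. Adam19 and Prrx1 lost theirs with limma-trend and Il1rn with the GC correction. The filter removed no gene. List medians changed sign for the chemokines under 11 alternatives and for glycolysis under 1. Same-numbered libraries were not paired by the labels. Deviations of same-numbered treated and DMSO libraries correlated at 0.33, 0.45 and -0.42 in NaJa-G and at -0.02, 0.03 and 0.08 in NaJa-F. Between the lines, same-numbered DMSO libraries correlated at 0.59, -0.65 and 0.79 and treated ones at 0.12, -0.02 and -0.07. Over all pairs of a NaJa-G and a NaJa-F DMSO library the values ran from -0.81 to 0.79. What the DMSO libraries of the lines shared was not tested. With the replicate number as a block 4687 genes were called (2683 positive, 2004 negative), 4612 of them shared. Depth limits genes near 0 CPM, such as Il18 with DMSO. The cause of these changes was not tested.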

Other observations

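Metabolic genes divided between the directions. Of 15 glycolysis and hypoxia genes, 5 had a more negative response in NaJa-G and 3 a more positive one, with a median difference of -0.05. Over all genes tested these shares were 14.3% and 19.2%. Slc2a1, the glucose transporter GLUT1, fell by 0.28 in NaJa-F and by 1.37 in NaJa-G, a difference of -1.10 ± 0.11, and Egln3, an oxygen sensor induced by hypoxia, differed by -1.42 ± 0.24. Pdk1 (-0.37) and Ldha (-0.41), which direct pyruvate away from mitochondria, fell in NaJa-G only, Ldha with a call lost in 11 of the 22 alternative fits. Ndrg1, another hypoxia gene, rose by 0.61 and 2.17, a difference of 1.56 ± 0.09 that was 1.57 at day 5. Of 18 cholesterol and fatty acid genes 15 were not called, the desaturases Scd1 (0.74) and Scd2 (0.68) were more positive in NaJa-G at day 1, and the fatty acid synthase Fasn (-0.46 ± 0.13, adjusted p = 0.00514) was more negative, a call lost in 6 of the 22 alternative fits (-0.53 to -0.36). At day 5 the difference of Scd2 was -0.68 (adjusted p = 5.93e-05).

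Of 14 genes of the ATF4 and unfolded protein response, 4 were more negative and 2 more positive in NaJa-G. Over all genes tested these shares were 14.3% and 19.2%. Phgdh (-0.88) and Psat1 (-0.82), enzymes of serine synthesis, fell in both lines, and Atf4 (-0.48) and the asparagine synthetase Asns (-0.43) fell in NaJa-G only. Xbp1 (0.60), a factor of the unfolded protein response, rose in both lines and Herpud1 (0.50) in NaJa-G only. Of 16 lysosome and autophagy genes, 5 were more positive and 1, Ctsl, more negative, against 19.2% and 14.3% of all genes tested. Their median difference was 0.25. Lamp2, a lysosomal membrane protein, rose by 0.49 and 1.13, and Map1lc3b, the autophagosome protein LC3B, by 0.35 and 0.96. Tfeb, a transcription factor of lysosomal genes, rose in NaJa-G only (0.60). The call of Ctsl (-0.33) was lost in 17 of the 22 alternative fits.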
